A study of Homo sapiens with 14 samples.

Results

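The glycolysis and hypoxia response genes described here are 37 protein-coding genes, taken from a list of names and found in a table of 58037 gene IDs through GENCODE 29 symbols. They comprise 3 genes of the oxygen-sensing HIF pathway, 4 glucose and lactate transporters, 11 enzymes of upper glycolysis, 6 of lower glycolysis, 3 that decide the fate of pyruvate and 10 other genes known to be induced by low oxygen. Counts per gene came from 14 libraries. OCI-AML2 is an established line of human acute myeloid leukaemia. RUNX1, a transcription factor of blood cell formation, was intact on both alleles (Runx1wt/wt, wild type) or carried a stop codon on 1 allele (Runx1R174*/wt, mutant). Of the total RNA libraries, 2 were wild type with the treatment label None, 4 were mutant controls and 4 were mutant cells given 100 nM HHT over 8 h. HHT, homoharringtonine, blocks the elongation step of translation. Line F3 and line G7 each gave 2 of the control and 2 of the treated libraries, and the labels do not say how either line was derived. RiboLace, which pulls down RNA on active ribosomes with a puromycin-like probe, gave 2 wild-type libraries and 2 mutant libraries of line F3, all with the treatment label None.

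All cells grew in alpha-MEM with 20% serum, and the treatment protocol names DMSO as the vehicle. One label gives 8 h and another 0 h for the mutant controls, while the wild-type libraries carry 0 h, so in total RNA the genotype and the control treatment cannot be told apart. HHT was examined here in mutant cells alone. If the 0 h label holds for their controls, HHT and 8 h more in culture cannot be told apart. The labels do not say that libraries of a group came from separate cultures, so the p-values measure only the spread between these libraries. A total RNA library held 19250789 to 21925693 counts, and a RiboLace library 465052 to 2034796. RUNX1 itself stood at 132 to 142 CPM (a count divided by the effective library total) in wild-type total RNA, 80.0 to 84.4 in F3 controls and 117 to 134 in G7 controls. Each of 8 myeloid markers had at least 10 reads in each total RNA library, with a summed level of 1016 to 1552 CPM, and 4 erythroid genes had 0 reads. Lymphoid, epithelial and fibroblast markers summed to at most 2.37 CPM in total RNA. In RiboLace the fibroblast list, led by COL1A1, summed to 5.89 to 10.4 CPM in wild type and 14.5 to 25.4 in F3, with COL1A2 and THY1 at 0, and its part in the RiboLace results was not tested.

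Glycolysis splits glucose into pyruvate in the cytosol, and lactate dehydrogenase turns pyruvate into lactate, which leaves the cell through monocarboxylate transporters. HIF1A, the oxygen-regulated subunit of hypoxia-inducible factor, pairs with ARNT on DNA that holds the core ACGTG or GCGTG and raises transcription of most genes of the pathway. In oxygen the prolyl hydroxylases EGLN1 and EGLN3 mark HIF1A protein for destruction, so HIF activity is set largely at the protein level, which counts of RNA do not measure. Proliferating leukaemia cells are known for high glycolysis even in oxygen.

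Because many members moved together under HHT, the DNA just before their start sites is shown for 8 of them, chosen after their values were seen: both lactate dehydrogenases, HK2, ALDOC, BNIP3, ANKRD37, SLC2A1 and HIF1A. The windows hold the 250 bases upstream of a RefSeq start site (GRCh38.p14), read 5′ to 3′ on the gene's strand, and capitals mark each ACGTG or GCGTG on either strand, so that a match on the other strand shows as its reverse complement. The palindrome CACGTG holds the first of them on both strands and is also a binding sequence of MYC and its relatives.
LDHA (chr11:18394313-18394562, plus strand): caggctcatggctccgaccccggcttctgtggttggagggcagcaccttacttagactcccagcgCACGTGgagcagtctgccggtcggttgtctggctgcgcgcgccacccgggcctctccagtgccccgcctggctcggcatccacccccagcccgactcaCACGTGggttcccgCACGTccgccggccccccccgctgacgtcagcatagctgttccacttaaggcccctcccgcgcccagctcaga
LDHB (chr12:21657843-21658092, minus strand): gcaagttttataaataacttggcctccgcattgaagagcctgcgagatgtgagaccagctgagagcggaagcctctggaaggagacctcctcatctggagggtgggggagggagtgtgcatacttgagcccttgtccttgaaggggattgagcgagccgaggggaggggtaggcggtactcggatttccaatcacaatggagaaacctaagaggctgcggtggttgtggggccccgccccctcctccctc
HK2 (chr2:74834920-74835169, plus strand): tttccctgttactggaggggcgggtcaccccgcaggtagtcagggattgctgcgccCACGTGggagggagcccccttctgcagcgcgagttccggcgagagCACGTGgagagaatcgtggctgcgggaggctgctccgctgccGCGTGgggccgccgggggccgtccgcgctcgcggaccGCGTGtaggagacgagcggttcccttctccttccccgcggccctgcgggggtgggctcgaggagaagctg
ALDOC (chr17:28576896-28577145, minus strand): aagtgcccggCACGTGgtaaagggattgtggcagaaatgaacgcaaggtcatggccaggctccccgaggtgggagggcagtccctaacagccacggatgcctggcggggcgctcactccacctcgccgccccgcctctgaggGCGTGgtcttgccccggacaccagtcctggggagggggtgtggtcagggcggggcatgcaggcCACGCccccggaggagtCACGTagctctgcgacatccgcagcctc
BNIP3 (chr10:131981924-131982173, minus strand): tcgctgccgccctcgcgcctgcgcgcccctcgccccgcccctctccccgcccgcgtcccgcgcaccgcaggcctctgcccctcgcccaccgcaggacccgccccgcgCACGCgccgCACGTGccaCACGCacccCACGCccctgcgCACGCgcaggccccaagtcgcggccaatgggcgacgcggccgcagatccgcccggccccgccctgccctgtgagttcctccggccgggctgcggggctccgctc
ANKRD37 (chr4:185396591-185396840, plus strand): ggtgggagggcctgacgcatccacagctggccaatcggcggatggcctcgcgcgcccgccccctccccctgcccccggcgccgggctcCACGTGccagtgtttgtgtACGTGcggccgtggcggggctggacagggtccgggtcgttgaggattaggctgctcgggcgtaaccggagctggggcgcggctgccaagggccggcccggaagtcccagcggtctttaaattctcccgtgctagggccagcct
SLC2A1 (chr1:42958869-42959118, minus strand): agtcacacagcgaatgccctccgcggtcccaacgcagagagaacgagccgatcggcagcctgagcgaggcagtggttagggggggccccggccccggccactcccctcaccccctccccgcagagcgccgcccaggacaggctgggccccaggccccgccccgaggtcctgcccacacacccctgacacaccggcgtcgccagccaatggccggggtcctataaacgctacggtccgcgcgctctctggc
HIF1A (chr14:61695263-61695512, plus strand): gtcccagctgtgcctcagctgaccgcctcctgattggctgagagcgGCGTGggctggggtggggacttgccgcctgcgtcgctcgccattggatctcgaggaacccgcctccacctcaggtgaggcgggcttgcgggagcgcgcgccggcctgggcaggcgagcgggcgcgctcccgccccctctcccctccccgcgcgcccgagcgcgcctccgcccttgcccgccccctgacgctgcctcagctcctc

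Where a gene had several windows, the 1 with the most matches is shown, and each CACGTG counts as 2 matches. The shown LDHA window, 1 of 2, held 5 matches, and the only window of its paralogue LDHB held 0. HK2 and BNIP3 each held 6, ALDOC 5, ANKRD37 3, HIF1A 1 and SLC2A1 0 in these letters. Of these, HK2 and HIF1A had 2 windows and the others 1. RefSeq windows were at hand for 32 of the 37 members; VEGFA, NDRG1, BNIP3L, SLC16A1 and SLC2A3 had none. ACGTG or GCGTG was present upstream of at least 1 start site in 26 of the 32 (81.2%), against 47.4% of all 27305 genes with windows. Genes with several start sites have more chances of a match: among those with 1 start site the shares were 14 of 20 members (70%) and 42.2% of 22114 genes. CACGTG was present in 8 of 32 members (25%) and 7.73% of all genes. The member windows were also richer in G and C, with a median of 68.4% against 58% over all windows, and the part of base composition in these shares was not tested. A match describes letters and not a bound site. The median log2 change under HHT, described next, was −1.43 over the 26 members with a match and −1.81 over the 5 tested members without one. EGLN3 (−5.34), without a match, and CA9, with a match, could only differ downward. The others without a match were SLC2A1 (−3.75), PGAM1 (−1.81), LDHB (−0.71) and PKM (−0.38). These are too few to order the medians.

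In wild-type total RNA, GAPDH was the most abundant member per kb of annotated exon, at 1629 ± 15.5 CPM per kb (SD, n = 2), followed by ALDOA at 1173 ± 40.3. That length joins all annotated exons of a gene and is not that of 1 transcript, so ranks per kb depend on the annotation. LDHA (604 ± 32.9) and ENO1 (588 ± 20.4) came next and did not differ beyond their spread. HK2 stood at 107 ± 22.1 CPM per kb, above the other hexokinase HK1 at 14.5 ± 0.413. HIF1A itself was at 8.74 ± 1.89. The lowest were CA9, a membrane carbonic anhydrase, at 0.798 ± 0.0573, EGLN3 at 0.154 ± 0.0254 and P4HA2, a subunit of collagen prolyl hydroxylase, at 0.0156 ± 0.0054 CPM per kb. The 37 genes together took 2.74 to 2.80% of all counts in wild type, 2.62 to 2.73% in F3 controls and 2.3 to 2.43% in G7 controls. Under HHT their share was 1.32 to 1.33% in F3 and 1.23 to 1.25% in G7, below each untreated library. In bulk RNA, fewer cells of a type and less RNA per cell cannot be told apart, and each of these values is relative to the library's total.

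**Figure D1:**
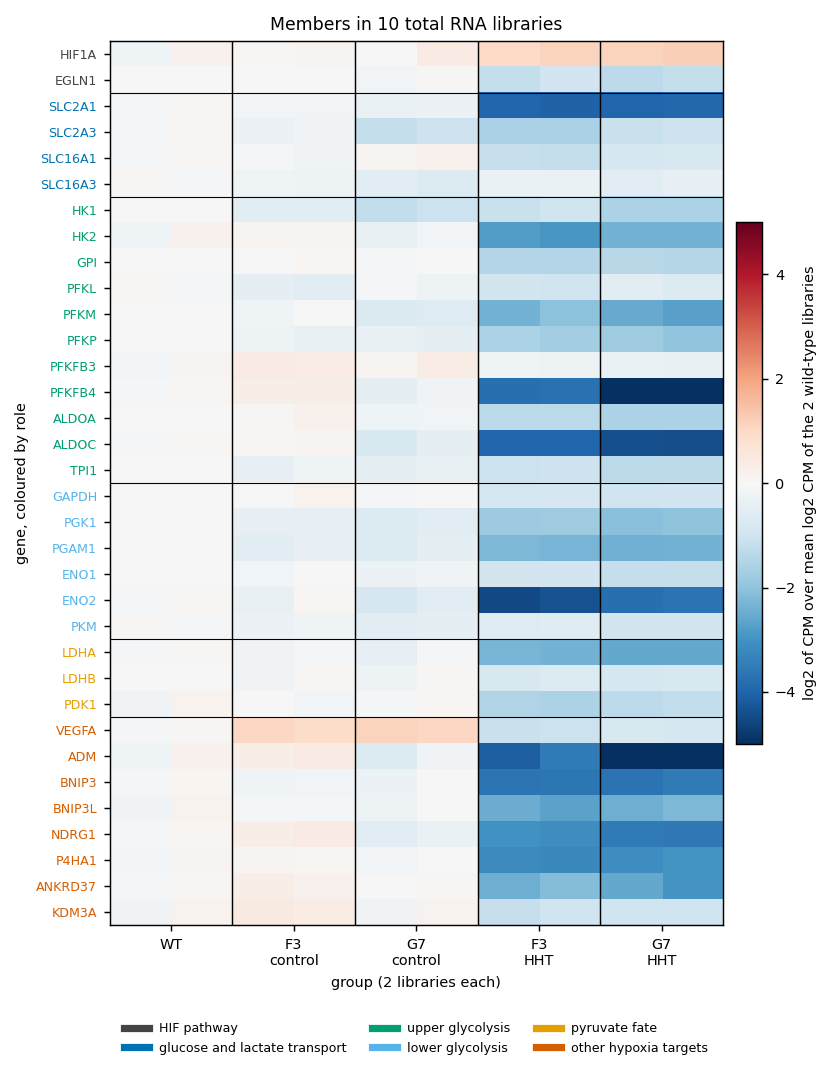
Level of 34 members (rows, coloured by role) in each of the 10 total RNA libraries (columns, 2 per group), as the log2 of CPM over the mean log2 CPM of the 2 wild-type libraries. EGLN3, CA9 and P4HA2 are left out for low counts. The 4 HHT columns are blue in nearly every row except HIF1A, and VEGFA is red in the 4 mutant control columns.

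In the HHT libraries the RNA of most of the pathway was lower than in controls, relative to other genes. Of the 36 members tested (P4HA2 had too few reads), 34 fell, 1 rose and 1 was not called by edgeR's quasi-likelihood test at an adjusted p under 0.05. The background is wide: 79.2% of the 13621 genes tested were called, 39.3% lower and 39.9% higher. The median log2 fold change of the 36 was −1.45, against 0.0 over all genes tested. EGLN3 and CA9 passed the filter on low counts through the control libraries alone, so they could only differ downward, and ENO2 was under its minimum in 1 treated library. Among the 33 members at the minimum in all libraries of both groups, 31 fell and 1 rose, with a median of −1.43. Groups did not overlap for 32 of the falling members, against 32.0% of all genes tested. Scaling by library totals alone moved the median of all genes up by 0.23 and left 33 members falling and 2 rising, with a median of −1.21.

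HIF1A was the 1 member that rose. Its control level was 48.2 and 48.7 CPM (F3) and 43.5 and 58.6 CPM (G7). Under HHT it was 89.8 and 95.3 CPM (F3) and 95.3 and 103 CPM (G7). All 4 treated libraries lay above all 4 controls, a log2 fold change of 0.94 ± 0.08 (SE), or 1.92-fold (edgeR adjusted p = 1.01e-07). EGLN1, the main hydroxylase that marks HIF1A, fell by 1.15 ± 0.07 on the log2 scale. EGLN3, itself a hypoxia-induced gene, had 23, 53, 23 and 18 reads in the 4 controls and 1, 0, 1 and 1 under HHT. Per read counted, that is a control level 41.1 times the treated one, with an exact 95% interval of 13.7 to 202 for counting error only.

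Among the transporters, SLC2A1, the widely expressed glucose importer, changed most. Its controls had 109 and 110 CPM (F3) and 97 and 99.5 CPM (G7), against 7.81, 7.4, 7.78 and 7.99 CPM in the 4 treated libraries. The treated libraries lay far below the controls and close to each other: the log2 fold change was −3.75 ± 0.08, a level 13.5-fold lower (edgeR adjusted p = 1.45e-13). SLC2A3, a high-affinity glucose importer, differed by line. Its level went from 184 and 197 CPM to 71.7 and 73.3 in F3, and from 97.4 and 108 CPM to 104 and 109 in G7. Over both lines this gave −0.68 ± 0.22 (adjusted p = 0.0107) with overlapping groups. The call was lost without HHT replicate 1 (−0.47, adjusted p = 0.0555) and with library totals as the scale (−0.44, adjusted p = 0.0864). Of the lactate and pyruvate carriers, SLC16A1 fell by 1.04 on the log2 scale. SLC16A3, the carrier suited to lactate export, had a log2 fold change of 0.03 (adjusted p = 0.672), and with library totals as the scale it was 0.26 and called (adjusted p = 0.00272).

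All 11 members of upper glycolysis fell, where 39.3% of all genes tested did, with a median of −1.43 and a range from −0.46 to −4.36. PFKFB4, a bifunctional enzyme that sets the level of the main activator of phosphofructokinase, changed most. Its controls had 248 and 248 CPM (F3) and 149 and 181 CPM (G7), and its HHT libraries 14.8 and 15.3 CPM (F3) and 6.25 and 6.13 CPM (G7). The groups were far apart in both lines, at −4.36 ± 0.12, or 20.5-fold lower (edgeR adjusted p = 1.79e-12). Its paralogue PFKFB3 fell by 0.62. ALDOC, the aldolase best known from brain, fell by 3.94 ± 0.09 on the log2 scale, and the abundant ALDOA by 1.47. Of the hexokinases, which trap glucose in the cell, HK2 fell by 2.54 ± 0.15 and HK1 by 0.47. The phosphofructokinases PFKM, PFKP and PFKL, whose step commits sugar to glycolysis, fell by 2.04, 1.41 and 0.46. GPI and TPI1, the 2 isomerases, fell by 1.43 and 0.86.

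All 6 members of lower glycolysis fell as well, with a median of −1.18, where 39.3% of all genes tested fell. ENO2 was under the filter's minimum in 1 treated library, and without it 5 of 5 fell, with a median of −0.93. ENO2, the enolase known as a neuronal form, was scarce. It had 7.43, 10.2, 5.44 and 6.68 CPM in the controls and 0.429, 0.473, 0.700 and 0.741 under HHT, without overlap (−3.64 ± 0.23, edgeR adjusted p = 4e-09). PGAM1, the phosphoglycerate mutase, fell by 1.81 and PGK1, the kinase that makes the first ATP of the pathway, by 1.43. GAPDH fell by 0.93, ENO1 by 0.90 and PKM, the pyruvate kinase, by 0.38. GAPDH, often used as a reference gene, thus differed between treatments in these libraries: 4502 to 5475 CPM in controls and 2460 to 2749 under HHT.

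LDHA, which makes lactate from pyruvate, fell most among the 3 genes of pyruvate fate. The controls had 3318, 3635, 2842 and 3528 CPM and the treated libraries 741, 726, 629 and 639. No treated library came near a control, and the log2 fold change was −2.29 ± 0.07 (edgeR adjusted p = 4.44e-12). LDHB, the subunit that favours the reverse reaction, fell by 0.71. PDK1, a kinase that inhibits pyruvate dehydrogenase, fell by 1.39.

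Of the 9 other hypoxia-induced genes tested, the 8 that had reads enough in both groups fell, with a median of −2.90, and CA9 could only differ downward. Over all genes tested 39.3% fell. ADM, which encodes the vasodilator peptide adrenomedullin, changed most: 228 and 240 CPM (F3) and 114 and 161 CPM (G7) in controls went to 10.5 and 16 CPM (F3) and 4.24 and 3.91 CPM (G7). All treated libraries lay below all controls (−4.54 ± 0.18, 23.2-fold lower, edgeR adjusted p = 3.96e-11). The mitophagy receptors BNIP3 and BNIP3L fell by 3.47 and 2.39. NDRG1, a common hypoxia marker, fell by 3.29, P4HA1, a subunit of collagen prolyl hydroxylase, by 3.15, and ANKRD37, an ankyrin repeat protein, by 2.66. VEGFA, the vascular growth factor, fell by 2.00 and KDM3A, a histone demethylase, by 1.26. CA9 fell by 2.93 ± 0.41 on 11 to 16 reads per control library and 1 to 3 per treated one. P4HA2 had at most 6 reads in any total RNA library and was not tested.

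**Figure D2:**
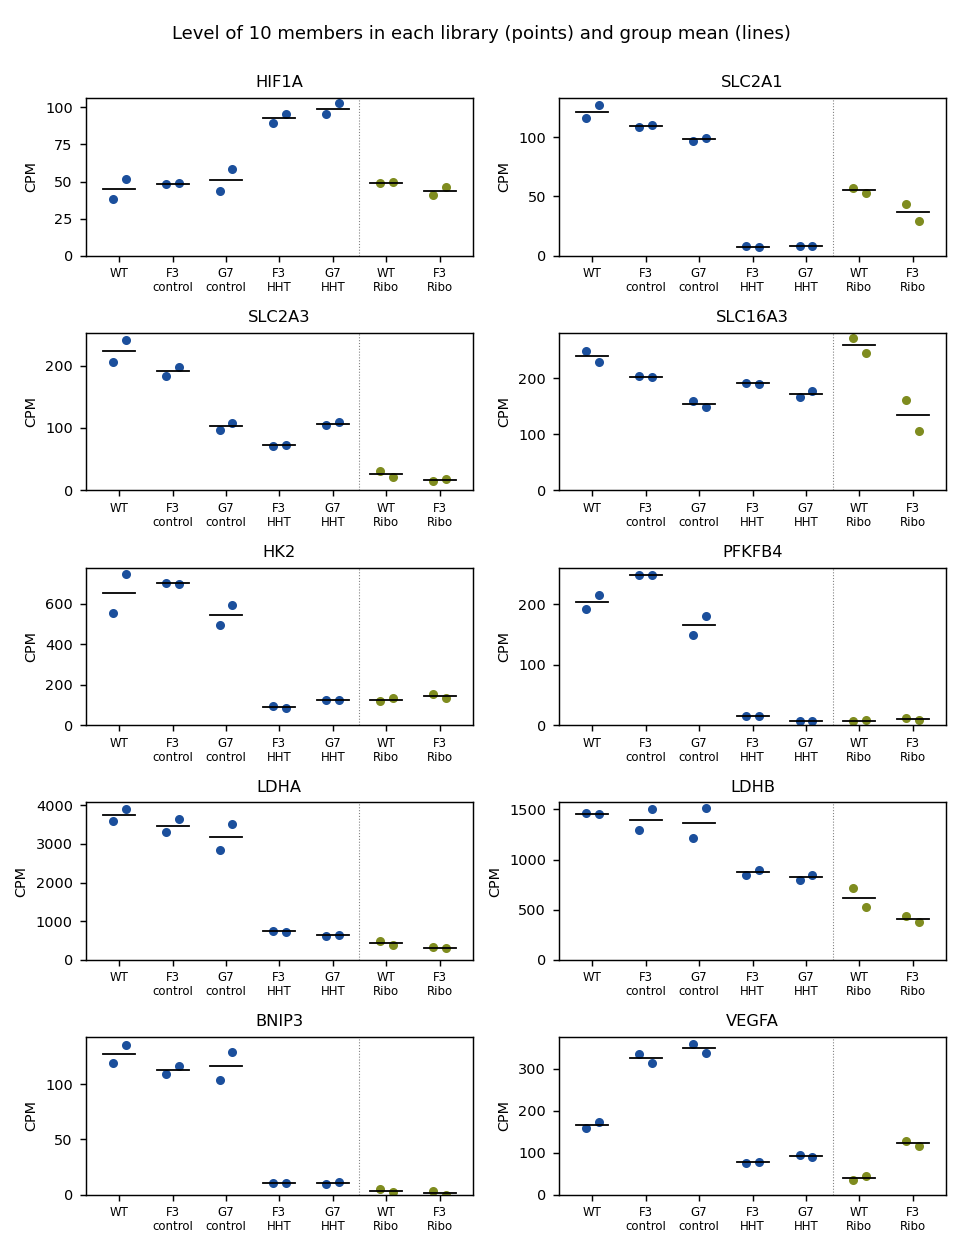
CPM of 10 members in each library (points) with the group mean (lines), total RNA left of the dotted line and RiboLace right of it; each assay was scaled on its own. HIF1A was higher in the 4 HHT libraries than in the controls, SLC2A1 stood at 7.4 to 7.99 CPM there, and VEGFA was higher in both mutant lines than in wild type before treatment.

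Members that are paralogues were then set against each other within each library, a comparison that no scaling of libraries alters. The member that fell more is given first in each of 10 such pairs, so the direction of the ratio follows from that choice and no test is given. The ratio per kb did not overlap between the 4 treated and the 4 control libraries in any of the 10. The shares below depend on the annotated exon lengths of each pair, while changes in log2 ratio do not. It was not counted how many other gene pairs separate likewise, and 79.2% of all genes tested were called under HHT. HK2 made up 92.1 to 93.4% of the hexokinase pair in controls and 66.3 to 81.1% under HHT, a change in log2 ratio to HK1 of −2.07. LDHA made up 52.8 to 55.2% of the lactate dehydrogenase pair in controls and 26.5 to 29.6% under HHT (−1.58), so LDHB became the more abundant of the pair. SLC2A1 held 42.2 to 56.5% of its pair with SLC2A3 in controls and 8.72 to 12.4% under HHT. PFKFB4 held 50.2 to 58.7% of its pair with PFKFB3 and then 5.60 to 12%. ALDOC and ENO2 were minor forms before treatment, at 2.33 to 3.29% and 0.263 to 0.413% of their pairs, and dropped to 0.474 to 0.561% and 0.0325 to 0.0663%. SLC16A1 to SLC16A3, BNIP3 to BNIP3L, PFKM to PFKL and PFKP to PFKL shifted by −1.07, −1.08, −1.57 and −0.94 in log2 ratio.

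Other genes of the same pathways, on lists that do not overlap the 37, moved in both directions, where 39.9% of all genes rose and 39.3% fell. Of 11 further oxygen-sensing genes tested, 7 rose and 3 fell, with a median of 0.39. EP300 (1.58 ± 0.08) and CREBBP (1.28 ± 0.10), coactivators that HIF recruits, and EPAS1 (3.09 ± 0.27), the other main oxygen-regulated HIF subunit, were called with the smallest adjusted p. EPAS1 stood at 0.106 to 0.475 CPM in controls and 1.32 to 3.06 under HHT, and it passed the filter through the treated libraries alone, so it could only differ upward. Without it 6 of 10 rose and 3 fell, with a median of 0.33. Of 35 further genes known to rise in hypoxia, 26 fell and 8 rose, with a median of −1.32 (24 and 7 of the 32 at the filter's minimum in all libraries of both groups). HILPDA, a lipid droplet protein, fell by 4.67 ± 0.12, ZNF395 fell by 3.57 ± 0.08 and GYS1, the glycogen synthase of most tissues, by 2.53 ± 0.07. Of 11 further glycolytic genes, 6 fell and 4 rose, with a median of −0.40 (5 and 3 of 9 by the same minimum). TIGAR, a phosphatase that opposes glycolysis, rose by 3.16 ± 0.12, while PGM1 fell by 0.87 and FBP1, an enzyme of glucose synthesis, by 2.18.

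The 2 mutant lines responded alike in direction. In F3 34 members fell and 1 rose, where 36.0% of all genes were called lower and 38.1% higher (74.0% in all). In G7 33 fell and 2 rose, with 36.1% of all genes called lower and 37.3% higher (73.4% in all). The second riser in G7 was SLC16A3 at 0.17 ± 0.07 (edgeR adjusted p = 0.0455). That call was lost without control replicate 1, 2 or 4 or without any 1 of the HHT libraries (0.11 to 0.21, adjusted p = 0.0604 to 0.198), and with RLE size factors or DESeq2 (0.15 in both). In F3 SLC16A3 had −0.11 (adjusted p = 0.197), and it was called lower without control replicate 3 (−0.15) or 4 (−0.14). The interaction of line and treatment was called for 3 of 36 members (8.33%), 2 positive and 1 negative, against 4.20% of all genes tested (2.14% and 2.06%). SLC2A3 fell by 1.42 ± 0.08 in F3 and had 0.07 ± 0.08 in G7, a difference of 1.48 ± 0.11 (edgeR adjusted p = 3.62e-06). Before treatment its G7 libraries were already below the F3 ones, and after treatment they were above them. HK2 fell by 2.99 ± 0.09 in F3, from 704 and 700 CPM to 93.2 and 86.3. In G7 it fell by 2.10 ± 0.09, from 494 and 594 CPM to 126 and 125, and the difference was 0.88 ± 0.12 (adjusted p = 0.00114). PFKFB4 fell by 4.06 ± 0.10 in F3 and fell by 4.73 ± 0.11 in G7, a difference of −0.66 ± 0.15 (adjusted p = 0.0212).

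With the replicate number as a block, 10 members had a called interaction, 8 with the smaller fall or the rise in G7 and 2 (PFKFB4 and ADM) with the larger fall there. The block paired control and treated libraries by title number, and the descriptions give a shared number to pair 2 alone. It raised the calls over all genes as well, from 4.20% to 16.1%. The 7 that joined were SLC16A3, ENO2, ADM, BNIP3L, NDRG1, P4HA1 and KDM3A, and ADM had the smallest adjusted p among them (−0.88 ± 0.14, adjusted p = 6.06e-08). Without a block ADM was at −0.89 ± 0.26 (adjusted p = 0.072). The number called without a block was 5 without control replicate 3, where 5.93% of all genes were called, and 8 without control replicate 4, where 7.53% were. The PFKFB4 call was lost without control replicate 1 or 2, or without any 1 of the HHT libraries (adjusted p = 0.0525 to 0.124), while the difference itself stayed at −0.63 to −0.69, and SLC2A3 and HK2 kept theirs with each library left out.

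**Figure D3:**
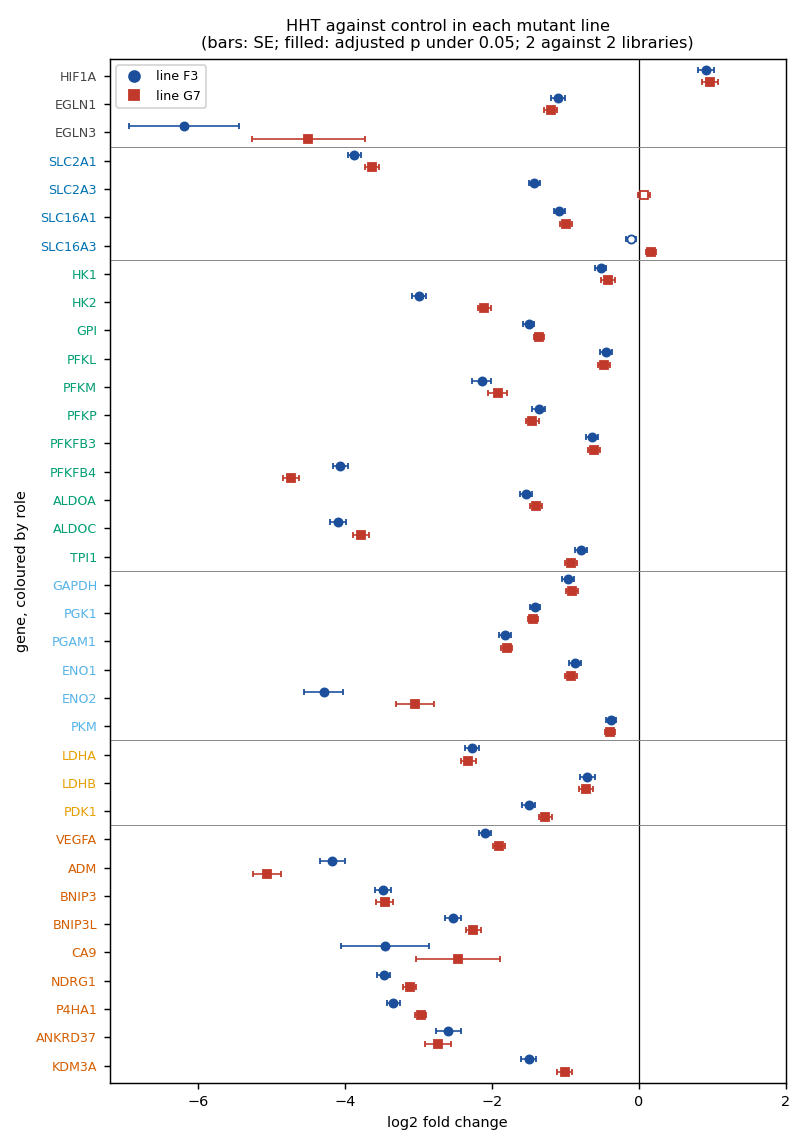
Log2 fold change of HHT against control in line F3 (circles) and line G7 (squares) for the 36 tested members, with SE bars; filled symbols had an adjusted p under 0.05. Symbols of the lines lie close together for most members, and SLC2A3 (−1.42 in F3, 0.07 in G7) and HK2 (−2.99 and −2.10) stand apart.

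Before treatment, VEGFA was the 1 member called higher in both mutant lines than in wild type. It was at 159 and 173 CPM in wild type, 337 and 314 in F3 and 360 and 338 in G7. The 4 mutant libraries lay above both wild-type ones, 2.02-fold on average (log2 1.02 ± 0.10, edgeR adjusted p = 0.00135). In the comparison of all 4 mutant controls with wild type, 4 of 36 members were called (11.1%), 1 up and 3 down, against 4.56% of 13949 genes tested (2.49% up, 2.07% down). HK1 was lower by 0.83 (adjusted p = 0.0384), PGK1 by 0.51 (0.0274) and PGAM1 by 0.53 (0.0167) on the log2 scale. With 1 wild-type library left, after replicate 1 or 2 was taken out, VEGFA alone was called, and 0.296% and 0.433% of all genes. The folds of the other 3 hardly moved then: HK1 was at −0.86 and −0.80, PGK1 at −0.54 and −0.49 and PGAM1 at −0.56 and −0.50. HK1 (−0.76) and PGK1 (−0.50) were also not called without control replicate 4. With the replicate numbers as a block 11 were called, and 19.0% of all genes, but the numbers pair nothing between these groups. No wild-type library shares a number with G7, so the block fit compares F3 alone with wild type. The median over the 36 was −0.10, and over all genes 0.0.

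Each line was also set against wild type alone, in comparisons that share the 2 wild-type libraries. In F3, 10 members were called, 4 higher and 6 lower (18.1% of all genes called, 9.51% higher and 8.54% lower). In G7, 14 were called, 1 higher and 13 lower (17.7% of all genes called, 8.87% higher and 8.82% lower). HK1 was highest in wild type and lowest in G7, an order that not all members shared: 89.7 and 93.4 CPM in wild type, 62.9 and 61.2 in F3 and 39.1 and 43.5 in G7. Its log2 fold changes were −0.57 ± 0.11 in F3 and −1.16 ± 0.11 in G7, and the 3 sets of libraries did not overlap. In F3 PFKL was lower by 0.52, and in G7 SLC2A3 was lower by 1.13, PFKM by 0.69, SLC16A3 by 0.64 and PKM by 0.53. PGK1, PGAM1, PFKP and TPI1 were called lower in both lines, by 0.31 to 0.48 in F3 and 0.41 to 0.62 in G7. NDRG1 had opposite signs, 0.36 ± 0.10 in F3 and −0.43 ± 0.10 in G7. With each library left out in turn, HK1, PFKL and VEGFA kept their calls for F3, where 4 were called without control replicate 1 or 2 and 5 without wild-type replicate 1. Of the G7 calls, 10 held, and SLC2A1, TPI1, ENO2 and NDRG1 were lost without at least 1 library.

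The lines also differed directly from each other before treatment. Between untreated G7 and F3, 10 of 36 members were called, 9 lower in G7 and 1 higher, against 12.5% of all genes (7.03% lower, 5.46% higher). SLC2A3 differed most (184 and 197 CPM in F3, 97.4 and 108 in G7, log2 −0.89 ± 0.11). NDRG1 (−0.80), ADM (−0.77), ALDOC (−0.72), HK1 (−0.59) and PFKFB4 (−0.59) were lower in G7 too, and these 6 calls held with each library left out. PFKM, SLC16A3 and ALDOA were also called lower and PFKL higher (0.36), and these 4 calls were lost without at least 1 library, with 6 calls in all without control replicate 2. Of the further lists, 1 gene was called in the comparison of all mutant controls with wild type: H6PD, which starts the pentose phosphate route in the endoplasmic reticulum, was higher in mutant cells by 1.31 ± 0.12 (adjusted p = 0.000896).

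**Figure D4:**
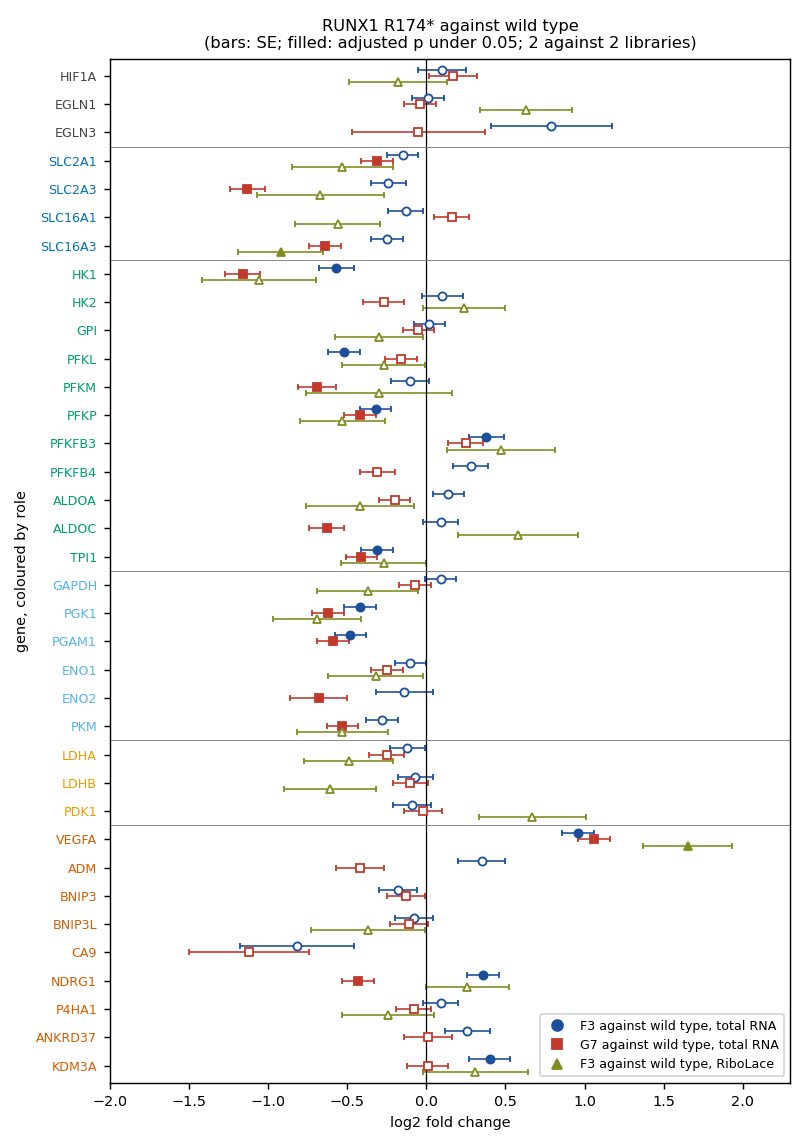
Log2 fold change of mutant against wild type for total RNA of F3 (circles) and G7 (squares) and for RiboLace of F3 (triangles), with SE bars; filled symbols had an adjusted p under 0.05, and members not tested in RiboLace have no triangle. VEGFA lies to the right in all 3 sets (0.96, 1.06 and 1.65), and most filled symbols of G7 lie to the left.

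VEGFA was higher in mutant cells in RNA on ribosomes as well. RiboLace gave 35.9 and 43.7 CPM in wild type and 129 and 116 in F3, without overlap (log2 1.65 ± 0.28, edgeR adjusted p = 0.000272). This was 1 of 2 members called among the 28 with enough RiboLace reads, against 11.8% of 9805 genes tested (6.18% higher, 5.59% lower). The other was SLC16A3, lower in F3: 272 and 245 CPM in wild type and 161 and 106 in F3 (−0.92 ± 0.27, adjusted p = 0.0244). That call was lost without wild-type RiboLace replicate 1 (adjusted p = 0.099) or without mutant RiboLace replicate 1 (0.0577) or 2 (0.436). HK1, called lower in total RNA, had −1.06 in RiboLace (adjusted p = 0.052). The depth of these libraries limits what can be seen: EGLN3, ENO2, ADM, CA9, P4HA2, PGAM1, BNIP3, PFKFB4 and ANKRD37 were not tested there. H6PD was again higher in mutant cells, by 1.33 ± 0.29 (adjusted p = 0.00278).

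Most members took a smaller part of the RiboLace libraries than of total RNA. Protein-coding genes as a whole took 74.5 to 77.9% of RiboLace counts, against 97.81 to 98.2% in total RNA of wild type and F3 controls. In wild type 31 of 36 were called lower and 1 higher, against 21.0% lower and 27.3% higher over 15338 genes (48.3% called). In F3 31 were lower and 1 higher, against 22.7% and 26.5% (49.2% called). The median was −1.86 in wild type and −2.04 in F3, and −1.81 and −1.97 with members at 0 reads set to the bound that 3 reads allow. In a fit of protein-coding genes alone it was −1.78 and −1.93, with 31 and 30 members lower. Of all genes in that fit 42.7% and 44.8% were called in either direction. Among members at the filter's minimum in all libraries of both assays, 30 of 33 were lower in wild type and 27 of 30 in F3. The 1 member called higher in both was SLC16A1, at 1.51 ± 0.18 in wild type and 1.01 ± 0.20 in F3. Its levels, scaled within each assay, were 88.3 and 97.8 CPM in total RNA and 282 and 188 in RiboLace of wild type. HIF1A (0.28 and −0.07) and SLC16A3 (0.27 and −0.44) were called in neither. SLC16A3 was called lower in F3 with no filter (−0.54), with the length trend removed (−0.67), without wild-type RiboLace replicate 1 or 2 (−0.46 each) and without mutant RiboLace replicate 1 (−0.87). HIF1A was called higher in wild type without wild-type total RNA replicate 2 (0.59). EGLN3 and CA9 had 0 to 3 RiboLace reads in each genotype, which is too few to tell.

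The lowest ratios were those of BNIP3 (−4.93 ± 0.32 in wild type and −5.42 ± 0.42 in F3), PGAM1 (−4.63 and −5.30), PFKFB4 (−4.59 and −4.47) and ADM. In RiboLace, BNIP3 had 9 and 2 reads in wild type and 4 and 0 in F3. PGAM1 had 12 and 14 reads in wild type and 7 and 0 in F3. Both were under the filter's minimum in 1 of the 2 F3 RiboLace libraries, so their F3 values are uncertain. ADM had 9007 reads in the F3 total RNA and 0 in its RiboLace libraries, a level per read counted at least 120-fold lower at a floor of 3 reads over the group. In wild type ADM was at −5.89 ± 0.35. ENO2 was at −3.64 ± 0.70 in wild type on 2 RiboLace reads. TPI1, LDHA and SLC2A3 were at −3.23, −2.94 and −2.89 in wild type, while PFKL (−0.70) and PFKP (−0.75) lay nearest to 0 among the members called lower. The PFKL, PFKM, ENO2 and ANKRD37 calls in F3 were lost without mutant RiboLace replicate 1, and that of PFKL also without any other 1 of 5 libraries.

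Reads on named pseudogenes moved with the assay. Among reads on GAPDH and its copies, 0.26 to 0.338% fell on copies in total RNA and 12.1 to 14.5% in RiboLace. The corresponding shares were 0.325 to 0.597% and 3.85 to 10.0% for TPI1, 0.856 to 0.986% and 5.92 to 8.02% for LDHA, and 0.0845 to 0.837% and 30.0 to 100% for PGAM1. The BNIP3 copies took 0.913 to 18.1% in total RNA and 0 to 100% in RiboLace, where BNIP3 itself had 0 to 9 reads per library. The values of those genes are uncertain to that extent, and the part of the copies in the RiboLace ratio was not tested. The 16 members with named pseudogenes had a median ratio of −1.78 in wild type and −2.14 in F3, and the 20 without had −1.95 and −1.90. Of the further lists, 23 of 36 other hypoxia-induced genes were lower in RiboLace of wild type and 24 in F3, led by HILPDA, ZNF395 and PLIN2, while EP300 was higher in both (1.34 and 1.36).

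Translational efficiency, the RiboLace to total RNA ratio, was not found to differ between F3 and wild type for any member. By edgeR 0 of 36 were called, against 1.49% of all genes (0.482% higher, 1.01% lower), and 5 had an unadjusted p under 0.05. In F3 the total RNA libraries were labelled as controls and the RiboLace libraries had the treatment label None. The F3 ratio and its difference from wild type cannot be told apart from any effect of the control treatment. VEGFA was at 0.64 ± 0.27 (adjusted p = 0.23); DESeq2 called it (adjusted p = 0.0413), the 1 member it called. Without wild-type RiboLace replicate 2, 3 members were called lower in F3: SLC16A1 (−0.77), SLC16A3 (−0.78) and LDHB (−0.81). In that setting 9.11% of all genes were called, close to the members' share of 3 in 36.

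**Figure D5:**
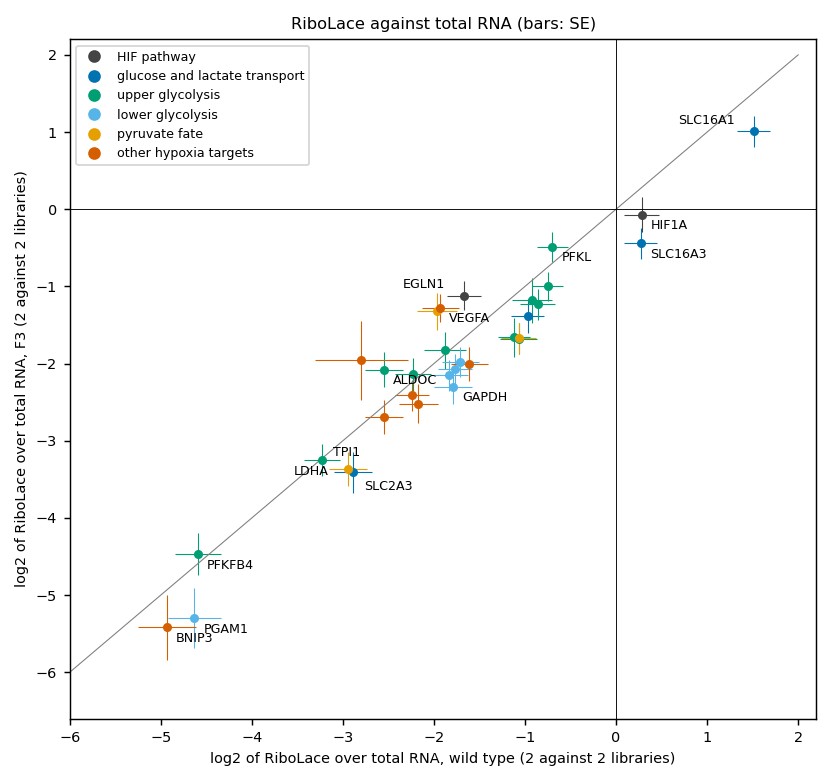
Log2 ratio of RiboLace to total RNA in wild type (horizontal) and F3 (vertical) for 32 members, coloured by role, with SE bars and the line of equality; ADM, EGLN3, CA9 and ENO2 are left out for low RiboLace reads. SLC16A1 is the 1 point above 0 on both axes, and BNIP3, PGAM1 and PFKFB4 lie lowest. BNIP3 and PGAM1 had 0 reads in mutant RiboLace replicate 2.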

How the data were processed

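The authors deposited 1 table of raw counts, with Ensembl gene IDs as rows and 14 libraries as columns. The submitters' processing notes name GRCh38, STAR 2.6.0b and DESeq2. How reads were assigned to genes, and whether by strand, was not given in the sources used here; reads from a gene, its antisense partner and close copies can therefore be mixed. Of 58037 IDs, 57433 matched GENCODE 29 and took its symbols, types and exon lengths; all 37 members matched.

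Counts were tested with edgeR 4.0.16 in R 4.3.3 (filterByExpr, TMM scaling, quasi-likelihood F-test, Benjamini-Hochberg adjustment over all genes of each fit, threshold 0.05). CPM are scaled within each assay, and CPM per kb divide by the joined length of all annotated exons of the gene. The SE is the absolute log2 fold change over the square root of F. HHT against control had line as a covariate; its interaction gave the line difference. Total RNA of F3 alone was the match for mutant RiboLace. Titles and descriptions number the replicates differently. Under the title's numbers, treated and control libraries with 1 number share a line. Same-numbered libraries deviated together (r across genes 0.459 to 0.588), a value that includes the shared line. Within lines r was 0.211 and 0.42. The labels do not settle whether these libraries are pairs. The main HHT tests did not pair them, and the replicate block was run as an alternative. Intervals and floors cover counting error only.

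The members, lists and tests were chosen with earlier results of these data known. Values per library are given for the member of each role with the largest change and for members that moved against most; of each further list, up to 3 genes are named by adjusted p, or by mean CPM if no gene of the list passed. Alternatives were RLE size factors, library totals, no filter, DESeq2 1.42.0, each library left out, a replicate block and, with RiboLace, protein-coding genes alone and removal of the trend with exon length. The fits were tested on simulated data. Promoter sequences are RefSeq's (GRCh38.p14).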

Additional observations from a re-analysis of the deposited data

Results flagged for a closer look

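Several values stood apart by fixed rules. Among 72 groups of 4 libraries, 3 held a library whose gap to its nearest neighbour exceeded Dixon's limit, which chance does in about 1 of 20 groups. EGLN3 was at 2.72 CPM in control replicate 2, above the other controls (0.954 to 1.24), and at 0.0 CPM in HHT replicate 2, where the other treated libraries had 1 read each. PFKFB3 was at 148 CPM in control replicate 3, below the other controls (171 to 175).

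The HHT response of 3 members differed between the lines by the interaction in edgeR. The difference, G7 minus F3 in log2 fold change, was 1.48 for SLC2A3, 0.88 for HK2 and −0.66 for PFKFB4. For SLC2A3 and HK2 the fall was larger in F3, and for PFKFB4 it was larger in G7. Line G7 also had less RNA of all 3 genes than F3 before treatment (SLC2A3 and PFKFB4 passed the test, and HK2 did not), and the part of that starting level in the differences was not tested.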

How the results depend on the processing

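No member changed sign where it was called, in any alternative run. Of the calls reported, those with every alternative were 34 of 35 for HHT against control, 35 of 35 within F3, 33 of 35 within G7, 32 of 32 for the wild-type ratio of RiboLace to total RNA and 28 of 32 for that of F3. Of the 4 calls of all mutant controls against wild type 1 held throughout (VEGFA), as did 3 of 10 for F3, 10 of 14 for G7, 6 of 10 between untreated lines and 1 of 2 in RiboLace (VEGFA).

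Counts of members called moved as follows, and the cause was not tested. The line difference in HHT response went from 3 to 5 with no filter on low counts, to 10 with the replicate block and to between 2 and 8 with 1 library left out. Mutant against wild type in total RNA went from 4 to 8 with no filter, 7 with DESeq2, 11 with the replicate block and between 1 and 6 with 1 library left out. With 1 library left out, the count ranged from 4 to 13 for F3 against wild type (10 with all), from 6 to 13 between untreated G7 and F3 (10), from 1 to 3 for RiboLace of F3 against wild type (2) and from 0 to 3 for translational efficiency (0), for which DESeq2 gave 1. Where a group was left with 1 library, that library was taken to vary like the others.

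The replicate block changed no other count by over 1.5 times. The numbers of the wild-type RiboLace and total RNA libraries ran against each other (r = −0.112); with these numbers exchanged, chosen after seeing the data, 31 members were lower and 1 higher in both genotypes and 0 were called for translational efficiency. In total RNA the block fit of mutant against wild type compares F3 alone with wild type. No paired analysis was possible for G7 against wild type or against F3, because G7 shares no number with either. RiboLace depth of 465052 to 2034796 counts leaves low members at 0 to 3 reads.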

Other observations

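Neighbouring routes of sugar use also moved under HHT. Of 8 pentose phosphate genes, 5 fell and 1 rose by edgeR, with a median log2 fold change of −0.31: H6PD fell by 1.01 ± 0.08, RPIA by 0.93 ± 0.06 and TKT, a transketolase, by 0.92 ± 0.05. Of 27 genes of pyruvate entry into mitochondria and the TCA cycle, 16 fell and 5 rose, with a median of −0.27. OGDH, a subunit of the oxoglutarate dehydrogenase complex, fell by 1.90 ± 0.06 and PDK3, a pyruvate dehydrogenase kinase, by 2.54 ± 0.14, while PDP1, a phosphatase that reactivates pyruvate dehydrogenase, rose by 2.11 ± 0.08. Over all genes tested 39.3% fell and 39.9% rose.

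In RiboLace 4 of 25 tested TCA cycle and pyruvate genes were lower in F3 than in wild type and none was higher; FH was lower by 1.14 ± 0.28, IDH3G by 1.10 ± 0.32 and SDHB by 0.98 ± 0.28 on the log2 scale. Of 10 further oxygen-sensing genes tested there, 2 were lower and 0 higher, with a median of 0.05: ELOB (−1.14 ± 0.29) and RBX1 (−1.19 ± 0.34), parts of the ubiquitin ligase that acts on HIF1A. Over all genes 5.59% were lower and 6.18% higher.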
